A study of Homo sapiens with 14 samples.

Results

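The mitochondrial ribosomal protein genes are nuclear genes whose proteins are imported into mitochondria to build the mitoribosome. They were taken here as all genes whose symbol starts with MRPL or MRPS followed by a number, pseudogenes left out. By this rule 75 of the 19775 genes tested were members, 48 of them named for the large subunit (MRPL) and 27 for the small subunit (MRPS). RefSeq lists 77 protein-coding genes of the rule. The other 2, MRPL53 and MRPS24, were on the array only in probe sets shared with another gene and are not counted. Each member was measured by its brightest single-gene probe set, and the signal of all 75 exceeded 50 in 7 or more of the 14 arrays.

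The 14 HG-U133 Plus 2.0 arrays came from 7 established T-cell acute lymphoblastic leukemia (T-ALL) lines, Jurkat, CCRF-CEM, TALL-1, ALL-SIL, Molt-4, HPB-ALL and P12-ICHIKAWA. AS605240, a small molecule PI3K inhibitor, was given to 1 culture of each line for 6 h, at an IC50 measured for each line separately. The Control culture received vehicle for the same time. The concentration therefore differed between lines. All were grown in serum-containing RPMI-1640 medium that was renewed before treatment. Each line is a single long-cultured leukemia with 1 array per treatment. The p-values therefore compare the average change with a variation from line to line in which array noise is contained. That variation was drawn toward the one shared by all genes (eBayes), so an SE does not follow from the spread of its gene alone. Values are on the log2(signal + 16) scale, in which a difference of 1 is a doubling and the change of a dim gene is understated.

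The mitoribosome translates the few proteins encoded by mitochondrial DNA, all of them subunits of the respiratory chain and ATP synthase. Part of its proteins descend from the bacterial ribosome and the others were gained in mitochondria. As in bacteria, the small subunit holds the decoding site, where codons are read, and the large subunit holds the catalytic center, the stalk that recruits translation factors and the tunnel by which the new chain leaves. Dividing cells must keep making mitoribosomes to maintain the respiratory chain. The genes are scattered over the chromosomes, with promoters that often carry sites of ETS factors such as GABP, of YY1 and of NRF1.

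The arrays differed in a few respects beyond the treatment. Polyadenylated spike-in RNAs had a change of 0.22 ± 0.17 (SD, n = 7), above 0 in 7 of 7 lines, and the median of all genes was above 0 in 7 of 7 lines, by 0.016 on average. The hybridization controls changed by -0.46 in P12-ICHIKAWA and by 0.053 ± 0.23 (SD) over the 7 lines. The 3′ to 5′ ratio changed by -0.0087 ± 0.055 for GAPDH and 0.037 ± 0.12 for ACTB. Over the members P12-ICHIKAWA and TALL-1 were the most alike, with a median absolute difference of 0.079 between their Control levels, against 0.24 or more for any other pair of lines. All 12 T-cell markers exceeded a signal of 50 in 7 or more arrays, against 1 of 6 B-cell, 1 of 5 myeloid and 2 of 8 epithelial and fibroblast markers. Summed signals of the B-cell markers were 62.4 to 512 with AS605240 and 60.6 to 438 in Control. Those of the myeloid markers were 160 to 264 with AS605240 and 155 to 278 in Control, and those of the epithelial and fibroblast markers were 362 to 728 with AS605240 and 287 to 841 in Control. Of these markers CD3G, a T-cell receptor complex gene, and CD79B, a B-cell receptor gene that exceeded a signal of 50 in 5 of 14 arrays, were lower in 7 of 7 lines, with changes of -0.26 (adjusted p = 0.00682) and -0.58 (adjusted p = 0.00138), and none of the others was called. The part of these measures in the results was not tested.

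Promoters of 5 members are shown before their values, chosen for the contrasts described afterwards, and each printed window holds a motif marked in capitals. The windows of MRPL1, MRPL4, MRPL12 and MRPS17, which also fell, and the other window of MRPL49 hold no such motif and are not printed. MRPL36 and MRPS23 were among the members that fell by more than 1.5-fold, MRPS18C fell while the gene on the other side of its promoter rose, and MRPL45 and MRPL49 rose. The sequences are from RefSeq (GRCh38.p14), run from 250 bases before to 50 after an annotated start, 5′ to 3′ on the strand of the gene, and capitals mark an E-box (CACGTG), an ETS site (CCGGAAG) or a YY1 site (AAGATGGCG) on either strand.
MRPL36 (chr5:1799788-1800087, minus strand): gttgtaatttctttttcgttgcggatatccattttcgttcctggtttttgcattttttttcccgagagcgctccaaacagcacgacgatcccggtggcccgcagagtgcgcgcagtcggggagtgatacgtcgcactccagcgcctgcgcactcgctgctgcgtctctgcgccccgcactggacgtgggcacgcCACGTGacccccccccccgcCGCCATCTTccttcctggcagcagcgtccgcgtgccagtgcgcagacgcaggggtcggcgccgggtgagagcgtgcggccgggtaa
MRPS23 (chr17:57849995-57850294, minus strand): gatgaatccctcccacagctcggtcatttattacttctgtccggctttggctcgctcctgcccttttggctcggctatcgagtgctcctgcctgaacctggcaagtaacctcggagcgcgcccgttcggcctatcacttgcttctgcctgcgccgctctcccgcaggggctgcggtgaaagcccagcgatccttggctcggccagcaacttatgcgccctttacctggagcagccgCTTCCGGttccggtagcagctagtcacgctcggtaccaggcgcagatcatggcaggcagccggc
MRPS18C (chr4:83455808-83456107, plus strand): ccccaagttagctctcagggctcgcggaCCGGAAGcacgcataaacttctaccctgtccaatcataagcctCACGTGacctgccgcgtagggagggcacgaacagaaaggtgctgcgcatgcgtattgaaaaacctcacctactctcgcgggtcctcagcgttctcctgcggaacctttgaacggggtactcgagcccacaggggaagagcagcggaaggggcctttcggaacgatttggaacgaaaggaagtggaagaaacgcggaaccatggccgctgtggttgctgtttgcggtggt
MRPL45 (chr17:38296918-38297217, plus strand): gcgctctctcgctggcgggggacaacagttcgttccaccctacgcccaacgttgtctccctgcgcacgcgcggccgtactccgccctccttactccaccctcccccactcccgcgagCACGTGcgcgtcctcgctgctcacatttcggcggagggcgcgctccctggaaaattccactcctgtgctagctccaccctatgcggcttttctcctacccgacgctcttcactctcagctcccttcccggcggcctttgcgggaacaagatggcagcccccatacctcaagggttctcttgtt
MRPL49 (chr11:65121933-65122232, plus strand): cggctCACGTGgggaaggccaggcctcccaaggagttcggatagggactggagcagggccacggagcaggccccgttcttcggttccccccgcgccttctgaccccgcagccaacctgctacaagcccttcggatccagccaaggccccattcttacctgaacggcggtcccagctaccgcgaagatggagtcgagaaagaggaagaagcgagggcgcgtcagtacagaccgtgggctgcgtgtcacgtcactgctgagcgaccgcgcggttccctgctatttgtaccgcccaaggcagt

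Such windows were found for 67 of the 75 members, and a gene with several windows counted as holding a motif if any window held it. CCGGAAG, a core bound by ETS factors, was in 43.3% of the members' promoters, against 16.6% of the promoters of 15384 tested genes. AAGATGGCG, bound by YY1, was in 17.9%, against 3.23%. CACGTG, the E-box bound by Myc and several other factors, was in 13.4%, against 10.9%. The NRF1 motif, searched as its palindromic consensus without mismatches, was in 1.49%, against 2.04%. CCAAT was in 34.3%, against 41.7%, and GGGCGG, the core of SP1 sites, in 59.7%, against 64.6%. Both strands were searched and none of the motifs contains another. Of 32 lower members with a window 11 held the ETS core and 6 the YY1 motif, against 18 and 6 of 33 members that were not called. The E-box was in a window of 3 of 32 lower members and 4 of 33 members not called. It was in the window of MRPL45 and in 1 of the 2 windows of MRPL49, the one printed, and MRPL10, the other member that rose, had no window here. These are descriptions of letters in short windows, without a test.

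The question put to the arrays was which transcripts of T-ALL cells respond to inhibition of PI3K. Mitochondrial ribosomal protein genes were mostly lower with AS605240. By limma, blocked on the cell line and with Benjamini-Hochberg adjusted p under 0.05 over 19775 genes, 39 of 75 members fell (52%) and 3 rose (4%), whereas of all genes 7.03% fell and 11.8% rose. When only the 9186 genes whose signal exceeded 50 in 7 or more arrays were tested, 17.5% fell and 24.8% rose, and 42 members fell and 3 rose. With the mean of P12-ICHIKAWA and TALL-1 counted as 1 line, 35 fell and 3 rose. The change was below 0 for 69 of 75 members, with a median of -0.21, against 0.013 for all genes. The decreases were modest, from 1.15-fold to 1.66-fold among the members that fell. Over the 7 lines the levels of all 75 members overlapped between AS605240 and Control, and the share of all genes that overlap so was not counted. The SD of the Control level between lines had a median of 0.41 over the members, and the SD of the change a median of 0.16. In RNA of a whole culture, less transcript per cell and fewer cells that make it cannot be told apart.

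The decrease was seen line by line. Of the 39 members that fell, 32 were lower in 7 of 7 lines and the other 7 in 6 of 7. Among members not called, MRPS15, MRPS7, MRPL27 and MRPS18B were lower in 7 of 7 lines as well. In all 36 of 75 members (48%) were lower in 7 of 7 lines, against 6.11% of all genes, and 1 member, MRPL10, was higher in 7 of 7, against 10.0% of all genes. Of the 33 members not called, 30 had a change below 0, and their adjusted p was 0.0604 or more, against at most 0.0427 for those called.

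**Figure D1:**
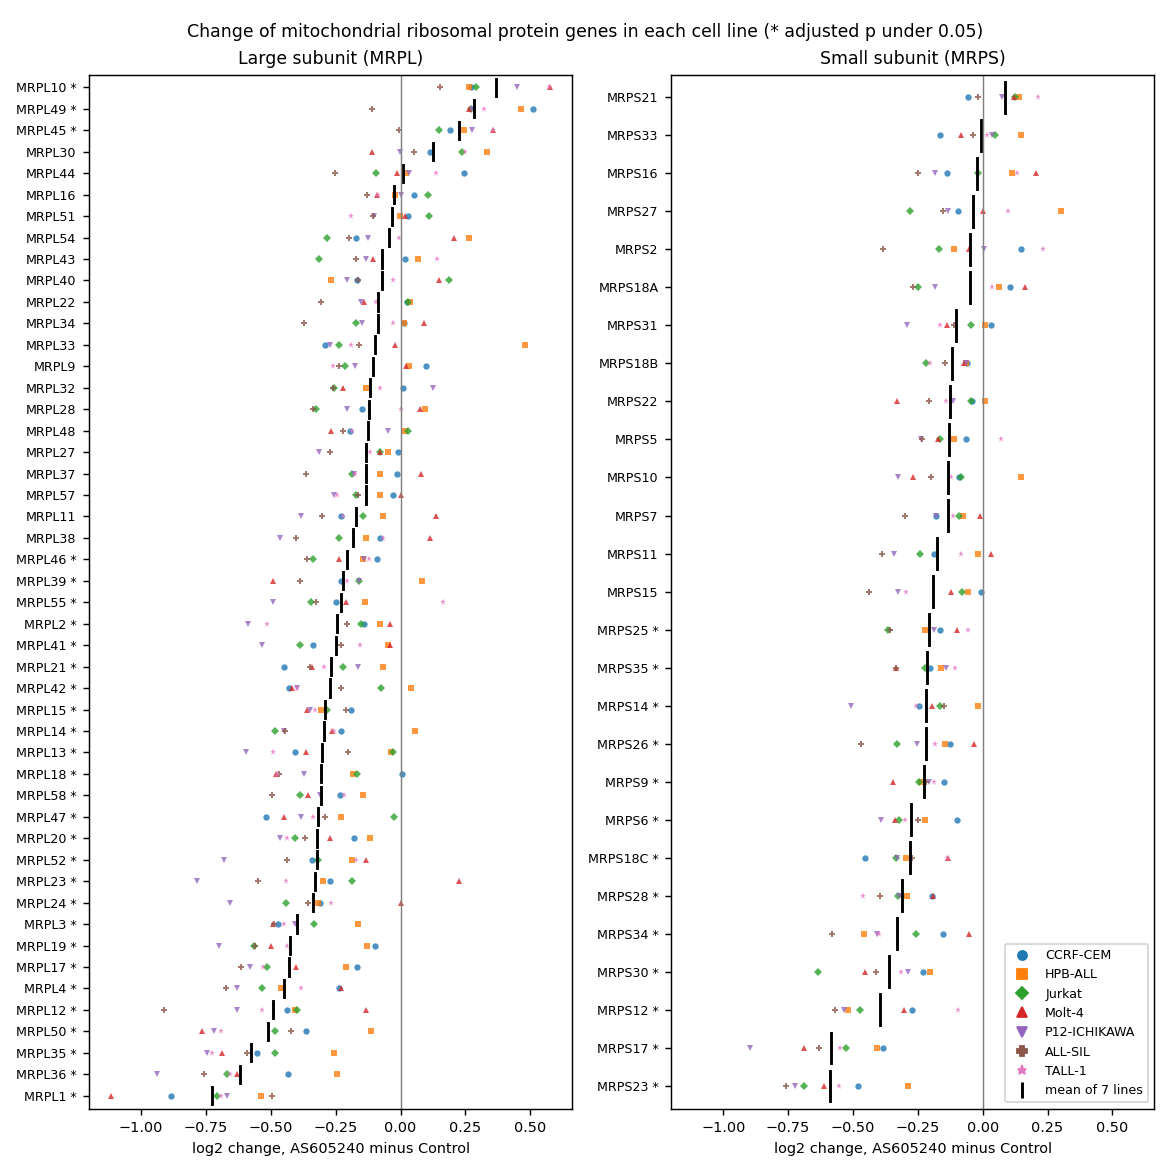
Log2 change (AS605240 minus Control, x axis) of each of the 75 members, large subunit on the left and small subunit on the right, ordered by the mean. Symbols are the 7 cell lines, the black bar is their mean, and a star marks an adjusted p under 0.05. Means run from -0.73 (MRPL1) to 0.37 (MRPL10), with 39 starred members below 0 and 3 above.

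A change of more than 1.5-fold together with an adjusted p under 0.05 was found for 3 members, all lower, where 0.506% of all genes were lower by this rule and 1.07% higher. They were MRPL1, MRPL36 and MRPS23. Without P12-ICHIKAWA 1 member met this rule, and without HPB-ALL 5 did. MRPL1 forms the L1 stalk, the mobile arm by which deacylated tRNA leaves the ribosome. Its level had a lowest, median and highest value of 8.07, 8.40 and 8.99 with AS605240, against 8.74, 9.19 and 9.70 in Control. P12-ICHIKAWA was the lowest line and Jurkat the highest in both conditions. The change was -0.73 (SE 0.074, adjusted p = 3.35e-05) and was below 0 in 7 of 7 lines, from -1.12 in Molt-4 to -0.49 in ALL-SIL.

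MRPL36, the homolog of the smallest protein of the bacterial large subunit, was at 8.92, 9.76 and 10.16 (lowest, median and highest) with AS605240, against 9.80, 10.20 and 10.83 in Control. P12-ICHIKAWA had the lowest treated level and the largest decrease, -0.94, and HPB-ALL the smallest, -0.25. The mean change was -0.62 (SE 0.076, adjusted p = 0.000108). MRPS23, a protein of the small subunit with no bacterial counterpart, was at 8.82, 9.14 and 9.73 with AS605240, against 9.20, 9.69 and 10.34 in Control. It changed by -0.59 (SE 0.066, adjusted p = 5.95e-05), from -0.76 in ALL-SIL to -0.29 in HPB-ALL. In HPB-ALL the decrease of each of these 3 members was smaller than their mean.

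MRPS17 and MRPL35 lay just under the 1.5-fold threshold. MRPS17, the homolog of bacterial S17, was at 7.80, 8.50 and 9.40 with AS605240, against 8.70, 9.13 and 10.02 in Control, and changed by -0.58 (SE 0.068, adjusted p = 7.71e-05). MRPL35, the homolog of bacterial L35, was at 7.45, 8.14 and 9.07 with AS605240, against 8.20, 8.48 and 9.76 in Control. Its change was -0.58 (SE 0.067, adjusted p = 7.62e-05), and its other probe sets were also called lower, by -0.40 and -0.19. MRPL50, which has no bacterial counterpart, changed by -0.51 (SE 0.078), from -0.77 in Molt-4 to -0.11 in HPB-ALL.

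The other lower members with the smallest p were MRPL12, MRPL4, MRPL17 and MRPL3. MRPL4 changed by -0.45 (SE 0.068, adjusted p = 0.000467) and was called lower by each of its 3 probe sets. MRPL17, a protein of the tunnel exit, changed by -0.43 (SE 0.068, adjusted p = 0.000631). MRPL3, whose bacterial homolog lies near the catalytic center, was at 10.85, 11.24 and 11.68 with AS605240, against 11.34, 11.67 and 12.13 in Control, and changed by -0.40 (SE 0.059, adjusted p = 0.000403). In each of these the line with the smallest decrease was still below 0.

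**Figure D2:**
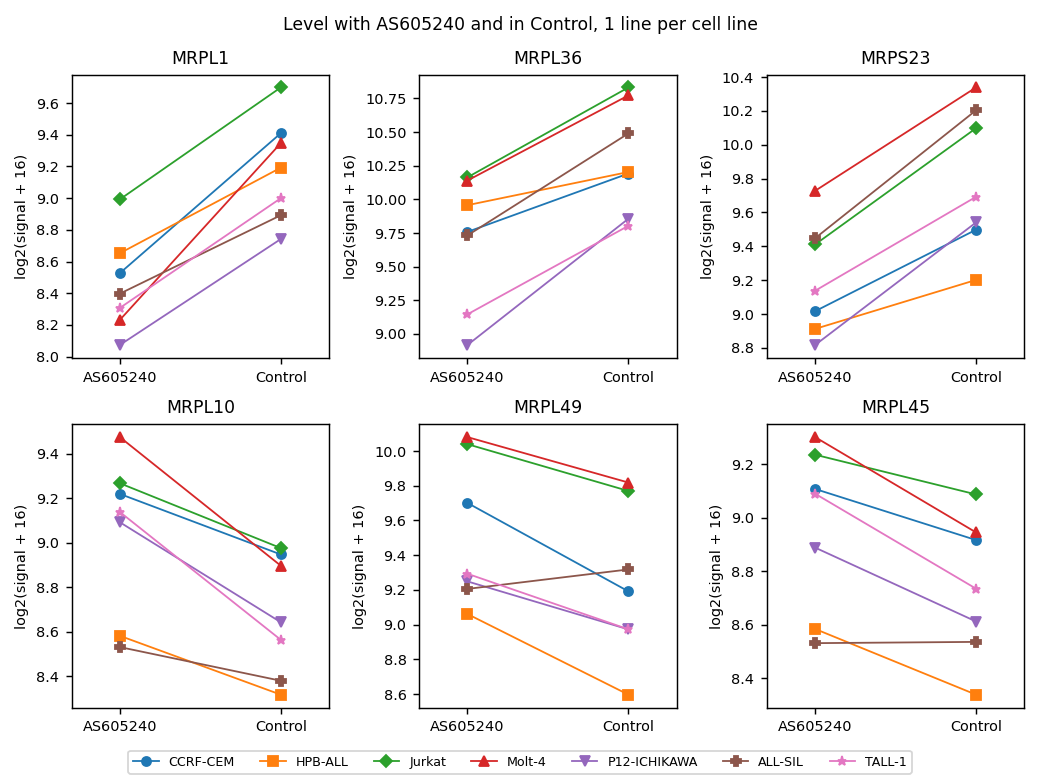
Level (log2(signal + 16), y axis) of 6 members with AS605240 (left) and in Control (right), 1 line and symbol per cell line. MRPL1, MRPL36 and MRPS23 were lower with AS605240 in 7 of 7 lines. MRPL10 was higher in 7 of 7 lines, and MRPL49 and MRPL45 in 6 of 7, with ALL-SIL the exception.

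The members that rose, MRPL10, MRPL49 and MRPL45, were all named for the large subunit. MRPL10 anchors the stalk to the large subunit. Its level was 8.53, 9.14 and 9.47 (lowest, median and highest) with AS605240, against 8.32, 8.64 and 8.98 in Control. It changed by 0.37 (SE 0.066, adjusted p = 0.00152) and was higher in 7 of 7 lines, from 0.15 in ALL-SIL to 0.58 in Molt-4. It was the member with the highest change in 5 of the 7 lines, the exceptions being CCRF-CEM, where MRPL49 was highest, and HPB-ALL, where MRPL33 was.

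MRPL49, a mitochondrial protein of the large subunit without a bacterial counterpart, was at 9.06, 9.29 and 10.08 with AS605240, against 8.60, 9.19 and 9.82 in Control. It changed by 0.28 (SE 0.072, adjusted p = 0.0132), from -0.11 in ALL-SIL to 0.51 in CCRF-CEM. MRPL45, which sits at the tunnel exit and ties the ribosome to the inner membrane, was at 8.53, 9.09 and 9.30 with AS605240, against 8.34, 8.73 and 9.09 in Control. It changed by 0.22 (SE 0.060, adjusted p = 0.0183) and was at -0.0047 in ALL-SIL and above 0 in the other 6 lines. Without Molt-4 its adjusted p was 0.0527, and without TALL-1 it was 0.0605. The 3 members each had 1 single-gene probe set. ALL-SIL had the smallest or a negative change for each of them, and it was also the line in which 73 of 75 members were lower.

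The stalk thus held members that moved in opposite directions. MRPL12, several copies of which form the mobile part of the stalk and which also binds the mitochondrial RNA polymerase, was at 8.16, 8.69 and 10.02 with AS605240, against 8.56, 9.60 and 10.15 in Control. It changed by -0.49 (SE 0.079, adjusted p = 0.000698), from -0.91 in ALL-SIL to -0.13 in Molt-4. MRPL11, at the base of the stalk, changed by -0.17 (adjusted p = 0.0912) and was below 0 in 6 of 7 lines. MRPL10, which holds MRPL12 in place, was above 0 in every line in which MRPL12 was below 0. Of 9 proteins of the exit tunnel and its rim, MRPL4, MRPL17, MRPL23, MRPL24, MRPL39 and MRPL47 fell, MRPL45 rose, and MRPL22 and MRPL44 were at -0.086 and 0.011 without a call. MRPL39 lost its call when any line but HPB-ALL was left out (adjusted p of 0.0574 to 0.107), and MRPL23 without P12-ICHIKAWA (0.0749), ALL-SIL (0.0748) or TALL-1 (0.0681). When the probe sets of each gene were averaged, MRPL23 was at -0.12 (adjusted p = 0.185) and MRPL39 at -0.12 (adjusted p = 0.0911).

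Members of both subunits fell. Among all genes 7.03% fell and 11.8% rose. Of 48 large subunit members 26 fell (54.2%) and 3 rose (6.25%), with a median change of -0.23. Of 27 small subunit members 13 fell (48.1%) and none rose, also at an unadjusted p under 0.05 (18 lower, 0 higher), with a median of -0.19. MRPS30 and MRPS18A carry small subunit names but sit in the large subunit, and with them moved the counts were 27 of 50 and 12 of 25. By line the median of the large subunit minus that of the small ran from -0.080 in P12-ICHIKAWA to 0.031 in HPB-ALL and was below 0 in 5 of 7 lines. No test of this difference was made, since the members of a subunit are not replicates.

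**Figure D3:**
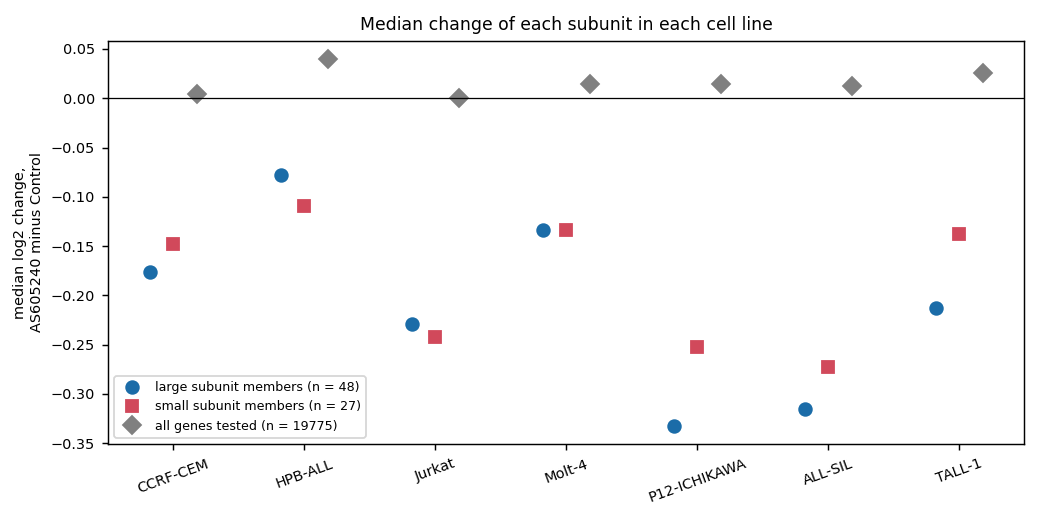
Median log2 change (AS605240 minus Control, y axis) of the large subunit members (blue circles), the small subunit members (red squares) and all genes tested (grey diamonds) in each of the 7 cell lines. Both subunit medians were below 0 in every line and the median of all genes lay between 0.00060 and 0.040.

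Members were also grouped by origin, with a low number in the symbol taken as bacterial and a short list of exceptions. The descent of single members was not checked. Of 47 members counted as bacterial-type 26 fell and 1 rose, with a median of -0.23. Of 28 counted as gained in mitochondria 13 fell and 2 rose, with a median of -0.16. In the large subunit 19 of 30 bacterial-type members fell (median -0.29), against 7 of 18 of the mitochondrial type (median -0.13). In the small subunit the counts were 7 of 17 (median -0.17) and 6 of 10 (median -0.21), so the mitochondrial type had the lower median there. The shares over all genes were 7.03% lower and 11.8% higher. No test of a difference between these groups was made.

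Another group of 6 small subunit proteins was chosen to include MRPS12 of the decoding site, and not all of the 6 lie at that site. Of these MRPS12 and MRPS9 fell, and MRPS2, MRPS5, MRPS7 and MRPS11 were at -0.047 to -0.17 without a call. MRPS12, the homolog of the bacterial protein that guards the accuracy of decoding, was at 8.37, 8.85 and 9.62 with AS605240, against 8.89, 9.18 and 9.93 in Control. Its change was -0.39 (SE 0.068, adjusted p = 0.0011), from -0.57 in ALL-SIL to -0.093 in TALL-1. MRPS9 changed by -0.23 (SE 0.054, adjusted p = 0.00849), within -0.35 to -0.15 over the 7 lines.

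The MRPS18 paralogs, all related to bacterial S18, gave 3 different values. MRPS18C changed by -0.28 (SE 0.059, adjusted p = 0.00415) and was lower in 7 of 7 lines, MRPS18B by -0.12 (adjusted p = 0.16) and MRPS18A by -0.0485 (adjusted p = 0.716), lower in 3 of 7. With the mean of its probe sets MRPS18C was not called (adjusted p = 0.18). No test of the difference between these paralogs was made. MRPS30 changed by -0.36 (SE 0.064, adjusted p = 0.00131) and was lower in every line. MRPL58, a peptidyl-tRNA hydrolase that frees stalled chains, changed by -0.31 (SE 0.059, adjusted p = 0.00246).

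The response differed between lines in extent. The median change of the members was -0.16 in CCRF-CEM, with 59 of 75 lower, and -0.078 in HPB-ALL, with 51 lower. It was -0.24 in Jurkat (64 lower), -0.13 in Molt-4 (55 lower) and -0.29 in P12-ICHIKAWA (66 lower). It was -0.30 in ALL-SIL (73 lower) and -0.19 in TALL-1 (60 lower). The difference from the median of all genes in the same line ran from -0.31 in ALL-SIL to -0.12 in HPB-ALL. With 1 array per treatment in a line, a line could not be tested by itself.

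Some members varied more between lines than others. MRPL23 changed by -0.33 (adjusted p = 0.0256), from -0.78 in P12-ICHIKAWA to 0.23 in Molt-4, the largest SD of a change among the members at 0.32. MRPL33 was at -0.29 to -0.022 in 6 lines and at 0.48 in HPB-ALL, and was not called (adjusted p = 0.51). MRPS9, MRPL15 and MRPS18B changed nearly alike in all lines, with SDs of 0.062, 0.066 and 0.070.

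The Control level also differed between lines. Molt-4 had the highest Control level of 35 members and Jurkat of 24, HPB-ALL the lowest of 23 and P12-ICHIKAWA of 17. Relative to the mean of the 7 lines, the median member lay at 0.43 in Molt-4 and 0.38 in Jurkat, at 0.14 in CCRF-CEM and at -0.067 in ALL-SIL. It lay at -0.20 in HPB-ALL, -0.26 in TALL-1 and -0.27 in P12-ICHIKAWA. The same measure over the 9186 brighter genes spanned only -0.042 to 0.10. MRPL41 varied most, with Control levels of 7.54 in ALL-SIL to 9.73 in Jurkat and a median of 8.56, and levels of 7.31 to 9.34 with AS605240. MRPL35 and MRPL2 came next, with Control SDs of 0.63 and 0.62. The decrease of MRPL41, -0.25 (adjusted p = 0.0219), lost its call without CCRF-CEM (0.0563), Jurkat (0.0663) or P12-ICHIKAWA (0.0675), and with the mean of its probe sets the change was -0.066 (0.476). That of MRPL2, also -0.25 (adjusted p = 0.0341), lost it without Jurkat (0.0534), P12-ICHIKAWA (0.102), ALL-SIL (0.0608) or TALL-1 (0.109), and with the mean of its probe sets (0.0753). With AS605240 the order was similar at the top, with Molt-4 highest for 46 members, and P12-ICHIKAWA was lowest for 35.

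**Figure D4:**
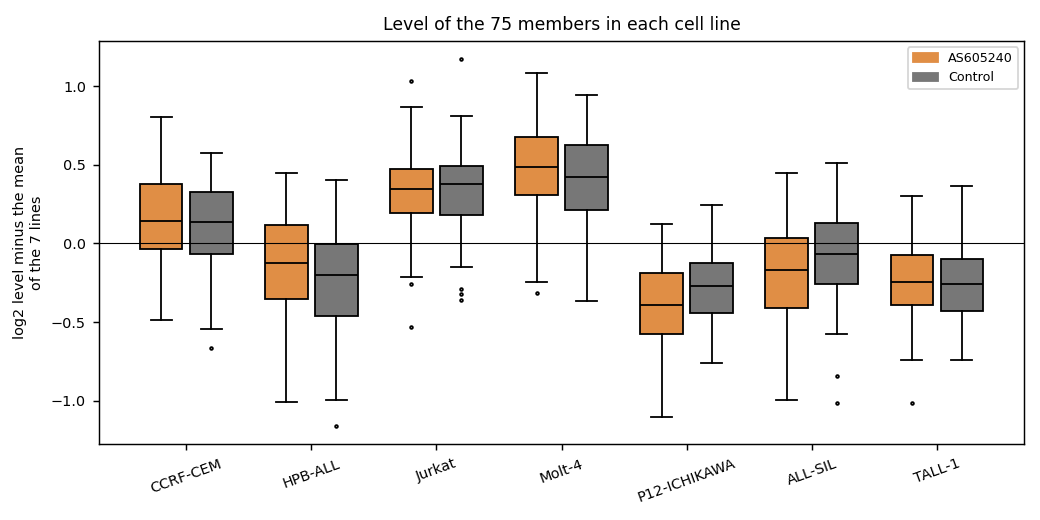
Level of the 75 members in each cell line relative to the mean of the 7 lines (log2, y axis), with AS605240 (orange, left box) and in Control (grey, right box). Boxes span the quartiles with the median as a line, whiskers reach 1.5 times the box height and dots lie beyond. Molt-4 and Jurkat lie above 0 and HPB-ALL, P12-ICHIKAWA and TALL-1 below in both conditions.

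A member could be read by several probe sets, and most of them moved alike. The members had 140 single-gene probe sets, and 37 members had 2 or more. Of the 65 that were not the brightest, 39 exceeded a signal of 50 in 7 or more arrays, and 33 of these changed in the direction of the brightest. Of 35 other probe sets of lower members, 8 were called lower and 2 higher. The 2 exceptions were MRPS14 and MRPS25. MRPS14 changed by -0.22 by its brightest probe set (adjusted p = 0.0293 over all probe sets) and by 0.37 by a dimmer one (adjusted p = 0.00307), each in 7 of 7 lines. MRPS25 changed by -0.21 (adjusted p = 0.0281) and by 0.37 (adjusted p = 0.00699), and its remaining probe set was at 0.032. The call of MRPS14 by its brightest probe set was lost without CCRF-CEM (adjusted p = 0.0579), P12-ICHIKAWA (0.0812) or TALL-1 (0.0665), and that of MRPS25 without Jurkat (0.0774) or ALL-SIL (0.0742). For these genes the direction therefore depended on the probe set, and 44 of the 75 probe sets used were of kinds (_s_at, _x_at) that can match several transcripts. Some members not called had another probe set that was called. MRPL30 was at 0.12 by its brightest and at 0.33 by a dimmer one (adjusted p = 0.00408), higher in 7 of 7 lines, and at -0.081 without a call by another. Lower calls came from other probe sets of MRPS15 (-0.24 and a dim one at -0.29), MRPS10 (-0.23 and -0.25) and MRPL57 (-0.21).

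Some members start near a gene read in the other direction. Pairs were counted if their annotated starts lay within 1000 bases and the genes ran away from each other. There were 18 such pairs with a measured neighbour outside the family, and MRPL46 and MRPS11 are neighbours of each other. Neighbours found only with overlapping starts were left out. These were ABHD8 beside MRPL34 (0.33, adjusted p = 0.00945), OAZ3 beside MRPL9 (0.083, adjusted p = 0.465) and EME2 beside MRPS34 (-0.091, adjusted p = 0.572). Of the 18 neighbours, 9 rose, 0 fell and 9 were not called, where 11.8% of all genes rose, and 20.3% of the 9186 brighter genes in the same fit. Of the members beside them 4 fell and 1 rose. MRPL50 fell by 0.51, and ZNF189, which starts 233 bases away and encodes a zinc finger protein, rose by 0.25 (SE 0.065, adjusted p = 0.0146) in 7 of 7 lines. MRPS18C fell by 0.28 and HELQ, a DNA helicase gene, rose by 0.34 (SE 0.078, adjusted p = 0.00767) in 6 of 7. HELQ starts 175 bases away, inside the printed window of MRPS18C. That window holds an E-box and an ETS core and reaches beyond the HELQ start.

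The remaining risers stood beside members that were not called. NCAPD2, a condensin subunit beside MRPL51, changed by 0.35 (adjusted p = 0.000721), HIRA, a histone chaperone beside MRPL40, by 0.31 (adjusted p = 0.0015), and SKA3, a kinetochore protein beside MRPL57, by 0.31 (adjusted p = 0.00983). EME1, GGA3, PPP1R10 and APBA3 rose by 0.22 to 0.26. Not all of these starts were close. NCAPD2, HIRA, PPP1R10 and APBA3 started 840, 812, 597 and 990 bases away, and EME1, SKA3 and GGA3 45, 106 and 273. MRPL49 was the reverse case. It rose, and FAU, which encodes a cytosolic ribosomal protein and starts 49 bases away, was at -0.023 (adjusted p = 0.858). SARS2, the mitochondrial seryl-tRNA synthetase beside MRPS12, was at 0.082 (adjusted p = 0.594). MRPL46 fell by 0.21 (adjusted p = 0.0233), and MRPS11, 320 bases away, changed by -0.17 (adjusted p = 0.0809).

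The other genes of mitochondrial translation were counted list by list, with no test of a difference between lists. In the same fit 7.03% of all genes fell and 11.8% rose. Of the 9186 brighter genes 13.6% fell and 20.3% rose in that fit. Of 4 mitoribosomal proteins with other symbols, GADD45GIP1 and CHCHD1 fell, with changes of -0.28 and -0.21, and DAP3 and PTCD3 were at 0.018 and -0.061 without a call. Of 25 assembly factors 7 fell (28%) and 4 rose (16%). FASTKD2, an RNA-binding protein needed for the large subunit, changed by -0.45 (SE 0.076, adjusted p = 0.00102), and MPV17L2, a membrane protein of mitoribosome assembly, by -0.44 (SE 0.077, adjusted p = 0.0012). NOA1, a GTPase of small subunit assembly, changed by 0.38 (SE 0.055, adjusted p = 0.000355) and was higher in 7 of 7 lines.

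Of 15 translation and messenger factors 3 fell (20%) and 2 rose (13.3%), against 7.03% and 11.8% of all genes. The share that rose was thus close to that of all genes. SLIRP, which binds mitochondrial messengers, changed by -0.55 (SE 0.065, adjusted p = 8.67e-05), GFM1, the elongation factor G, by -0.30 (adjusted p = 0.0023), and RMND1 by 0.30 (adjusted p = 0.0027). Of 15 mitochondrial tRNA synthetases 6 fell (40%) and 3 rose (20%), with MARS2 at -0.78 (SE 0.068, adjusted p = 1.32e-05), CARS2 at -0.52 and NARS2 at -0.42. Of 9 genes that transcribe or copy mitochondrial DNA 4 fell and none rose, at an unadjusted p under 0.05 6 and 0. They were SSBP1 (-0.33, adjusted p = 0.00104), POLG (-0.36), TFB2M (-0.27) and POLRMT (-0.25).

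Of 10 nuclear regulators of mitochondrial genes 2 fell (20%) and 1 rose (10%), against 7.03% and 11.8% of all genes. PPRC1, a coactivator of the PGC-1 family, changed by -0.71 (SE 0.079, adjusted p = 5.36e-05), and PPARGC1B, its relative, by -0.66 (SE 0.094, adjusted p = 0.000327). GABPA, the DNA-binding subunit of GABP, which recognizes the ETS core counted in the promoters, changed by 0.25 (SE 0.065, adjusted p = 0.0161). The MYC transcript was at -0.036 (adjusted p = 0.753), NRF1 at 0.030 (adjusted p = 0.831) and YY1 at 0.030 (adjusted p = 0.801).

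Of 32 large and 21 small cytosolic subunit proteins, 0 fell and 0 rose by limma, also at an unadjusted p under 0.05, and their median changes were 0.029 and 0.014. Of these 53 genes 50 had mean Control levels of 12.13 to 13.17, in the upper end of the signal scale, and whether a change would be compressed there was not tested. The largest changes among the 53 were 0.13 for RPS9 (adjusted p = 0.211) and -0.11 for RPLP2 (adjusted p = 0.373), which exceeded a signal of 50 in only 3 of 14 arrays. A further 15 large and 11 small subunit proteins on the lists were not analysed here.

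**Figure D5:**
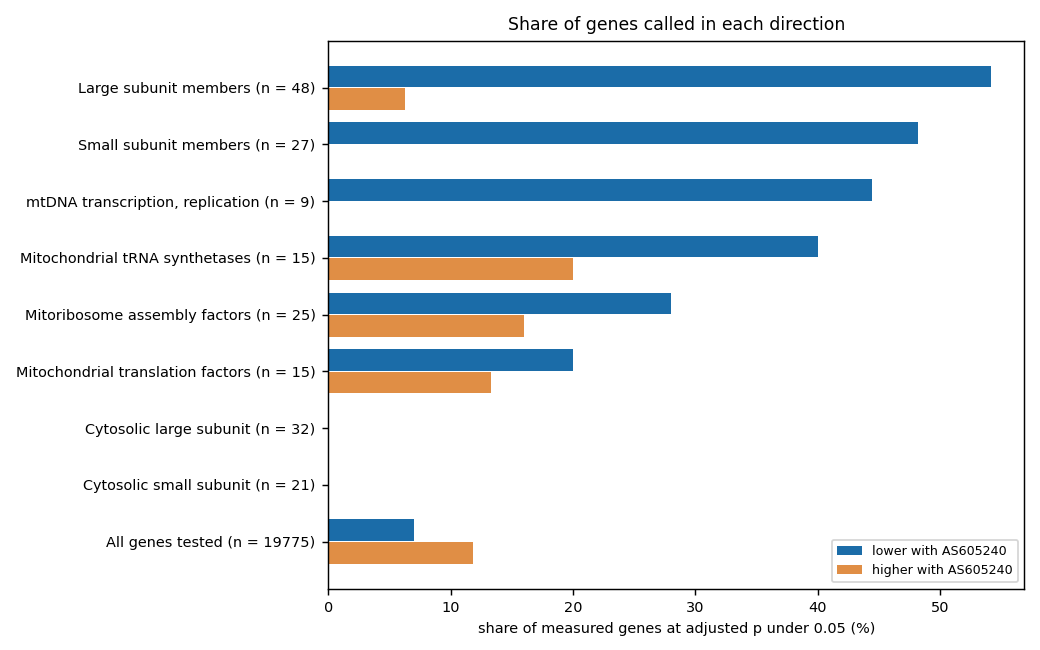
Share of measured genes (%, x axis) called lower (blue) and higher (orange) with AS605240 in each gene list, at an adjusted p under 0.05, with the number measured. Large and small subunit members lie at 54.2% and 48.1% lower, the cytosolic ribosomal proteins at 0 in both directions, and all genes at 7.03% lower and 11.8% higher.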

How the data were processed

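Total RNA from the 7 T-ALL cell lines was hybridized to 14 arrays, and the authors deposited a linear signal intensity per probe set, summarized with iterPLIER. PLIER and Affymetrix Expression Console 1.3.1.187 are named in the submitters' processing notes. An offset of 16 and log2 were applied here, and the smallest deposited intensity was above 0. The number of arrays limits the precision.

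Of 54675 probe sets 62 were controls. Of the others, 41091 named 1 gene and 1801 several, by the annotation of the platform. For 41037 of the single-gene probe sets the symbol was looked up by the gene ID in a RefSeq table (GRCh38.p14). Each gene was represented by the brightest probe set that names it alone. Limma 3.58.1 (lmFit, eBayes; R 4.3.3) served to compare AS605240 with Control. The cell line was a block, since a line supplied both arrays of its pair, as in the paired analysis of the study's methods. A call needed a Benjamini-Hochberg adjusted p under 0.05. Where both thresholds are named, the change also had to exceed 1.5-fold. The fit was tested on simulated data. The members, lists and rules for named genes were chosen with earlier results of these data known. Named members were those past both thresholds, the 10 lower members with the smallest p, the higher members, those of selected sites, those with the largest spread between lines, those with opposed probe sets, the MRPS18 paralogs and MRPS30, and the 3 genes with the smallest p of each other list. MRPL15, MRPL16, MRPL27, MRPL42, MRPL46, MRPL58, MRPS34, DAP3 and PTCD3, and the neighbours of members that did not rise, were named after their values were seen. The alternatives were an offset of 4 or of 64, centring on the median, quantile normalization, the mean of all probe sets of a gene, a test of brighter genes only (signal above 50 in 7 or more arrays), adjustment over all probe sets, no block, each line left out, P12-ICHIKAWA and TALL-1 as 1 line, subunits by structure, and eBayes with a trend. MRPL20-AS1, a long noncoding RNA gene, and the pseudogene MRPL45P2 were left out. The 15 genes of mitochondrial DNA on a further list were not analysed here.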

Additional observations from a re-analysis of the deposited data

Results flagged for a closer look

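Of 225 groups of 7 values (75 members, with AS605240, in Control and as the change), 7 held a value far from the other 6, and chance gives about 1 in 20. MRPL33 had a Control level of 9.63 in HPB-ALL, against 10.18 to 10.48 in the other lines, and its change there was 0.48, against -0.29 to -0.022. MRPL49 changed by -0.11 in ALL-SIL, against 0.26 to 0.51 in the other lines. MRPS34 was low in HPB-ALL in both conditions, at 7.32 with AS605240 (8.21 to 8.87 in the other lines) and 7.78 in Control (8.61 to 9.02). MRPL16 was high in Jurkat with AS605240, at 10.35, against 9.68 to 9.84. MRPL42 was high in Molt-4 in Control, at 10.99, against 10.05 to 10.45.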

How the results depend on the processing

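Under the alternatives with the line kept in the model, 29 to 47 members fell and 2 or 3 rose. The lowest number that fell was with an offset of 4 (29, against 39) and the highest with centring on the median (47), which also turned the share of higher among all called genes from 62.7% to 43.7% and raised the number of all genes that fell to 2146. Past both thresholds were 5 members with an offset of 4 and 5 with centring. With lines left out in turn 32 to 39 members fell, 2 or 3 rose, 21 to 26 large and 11 to 13 small subunit members fell, the median of the members ran from -0.22 to -0.18, and 1 to 5 members were past both thresholds, with 1 without P12-ICHIKAWA and 5 without HPB-ALL. Of all genes 1054 to 1450 fell and 1800 to 2196 rose. Without the replicate block that pairs the arrays of a line, 0 members fell, 0 rose and 0 were past both thresholds, with 0 large and 0 small subunit members lower, and of all genes 6 fell and 19 rose. At an unadjusted p under 0.05, 5 members were lower in that fit. MRPL45 lost its call with an offset of 4 (adjusted p = 0.0535) and with centring (0.0602). MRPL44, not called, turned to -0.031 with quantile normalization, -0.042 with centring, -0.011 with the mean of its probe sets, -0.0016 with P12-ICHIKAWA and TALL-1 as 1 line, and ran from -0.028 without CCRF-CEM to 0.055 without ALL-SIL (-0.010 without TALL-1). With the mean of all probe sets MRPS14 was at 0.076 and MRPS25 at 0.064, and their construction averages probe sets that moved in opposite directions. MRPS2 ran from -0.094 without TALL-1 to 0.0088 without ALL-SIL. For the reversals of MRPL44 and MRPS2 and for the lost calls the cause was not tested. Of the values of named members under all settings, 551 kept their direction and side of the threshold, 65 lost a call (25 of them without the block) and 21 gained one. The direction reversed in 9, all of them given above.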

Other observations

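Probe sets of the family that named no single member were read for themselves. The probe set shared by MRPL53 and CCDC142 changed by 0.17 (SE 0.064, adjusted p = 0.0912) and was lower in 1 of 7 lines, and the one of MRPS24 and its readthrough with URGCP changed by -0.027 (adjusted p = 0.846). MRPL20-AS1, a long noncoding RNA gene next to MRPL20, changed by 0.20 (SE 0.088, adjusted p = 0.143), whereas MRPL20 fell by 0.32 (SE 0.061, adjusted p = 0.00222). A probe set shared by the pseudogene MRPS31P5 and THSD1 changed by 0.73 (SE 0.096, adjusted p = 0.000176) and was higher in 7 of 7 lines. The brightest probe set of MRPS31 was at -0.10 (adjusted p = 0.282). Of its other single-gene probe sets, 1 was at -0.18 (adjusted p = 0.0608 over all probe sets). A dim one, over a signal of 50 in 0 of 14 arrays, was at 0.31 (adjusted p = 0.0157) and higher in 7 of 7 lines. The signal of a shared probe set cannot be assigned to either gene.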
